A study of Mus musculus with 6 samples.

Results

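The genes of the MEF2 transcription factors (Mef2a, Mef2b, Mef2c and Mef2d) and of the class IIa histone deacetylases (Hdac4, Hdac5, Hdac7 and Hdac9) were examined in bulk RNA-seq of mouse primary myoblasts. These 8 genes were chosen by name, from 54532 genes in the deposited table. The expression filter kept 14679 genes, among them 7 of the 8. Mef2b had too few reads for the test, and its values are given per library. The cells came from hind-limb muscle of mice aged 3 weeks and were collected at day 2 of culture, in medium with 10% serum and FGF. The labels name the genotypes WT and eIF5A knockout, with 3 libraries each, called WT and KO-labelled libraries here. The study's KO animals carry floxed eIF5A and Pax7-CreERT2, which deletes in Pax7-expressing cells after tamoxifen, and its WT controls are described in one place as carrying Pax7-CreERT2 alone and in another as floxed without Cre. Which of these the sequenced WT cells were is not stated. Cells in these cultures that never expressed Pax7 would keep the gene. The sources do not state whether the 3 libraries of a genotype came from separate mice, so that p-values measure the spread between these libraries alone.

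MEF2 proteins are MADS-box transcription factors that bind an A/T-rich DNA element in the control regions of many muscle genes. They act together with the myogenic bHLH factors MyoD and myogenin. Class IIa HDACs bind MEF2 and recruit corepressors to it, and they have little deacetylase activity of their own. Kinases of the CaMK, PKD, SIK, MARK and AMPK families phosphorylate these HDACs. The phosphorylated proteins are bound by 14-3-3 proteins and leave the nucleus, which frees MEF2. This control acts on proteins and their location, and RNA-seq measures only the transcripts.

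Total counts were between 16281216 and 17734551 per library. The transcript of the targeted gene, Eif5a, did not have a lower level in the KO-labelled libraries (log2 fold change 0.02, adjusted p = 0.993 in edgeR), so that every direction here refers to the labels. The counts cover the whole gene and cannot show a deletion of part of it. It had 1603, 986 and 1238 CPM in WT replicates 1 to 3 and 1364, 1459 and 1059 CPM in KO-labelled replicates 1 to 3. CPM are read counts per library size, corrected with TMM factors. WT replicate 1 stood apart: mitochondrial transcripts took 5.75% of its counts, against 2.11% to 3.50% in the other 5 libraries, and the 10 most abundant genes took 8.54%, against 5.01% to 6.65%. The muscle identity of the cultures was checked with 9 myogenic markers. All were detected, with a summed level of 656 to 1635 CPM in WT and 667 to 1170 CPM in the KO-labelled libraries. The 12 endothelial markers were detected as well, at a summed 1784 to 3529 CPM in WT and 3216 to 4617 CPM in the KO-labelled libraries, so that transcripts of both cell types were present. In bulk RNA, fewer cells of a type and less RNA per cell cannot be told apart. Mural cell markers summed to 383 to 730.3 CPM in WT and 754 to 864 CPM in the KO-labelled libraries. Macrophage markers summed to 61.7 to 133 CPM in WT and 66.9 to 164 CPM in the KO-labelled libraries, and fibroblast markers to 2395 to 3173 and 2274 to 2869 CPM. None of the listed marker genes was at 0 in all 6 libraries.

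The 8 genes lie on 8 chromosomes (mm10, which is GRCm38). Mef2a is at chr7:67231163-67372858 on the minus strand, Mef2b at chr8:70139711-70167488 on the plus strand, Mef2c at chr13:83504034-83667080 on the plus strand and Mef2d at chr3:88142372-88172086 on the plus strand. Hdac4 is at chr1:91928779-92195699, Hdac5 at chr11:102194432-102230166, Hdac7 at chr15:97792664-97844502 and Hdac9 at chr12:34047580-34917095, all on the minus strand. No 50-base stretch of annotated transcript was shared between any of the 8 genes. Overlaps with neighbours limit some of the counts. Mef2b overlaps Borcs8 on the same strand, which had 1471 reads over the 6 libraries against 45 for Mef2b. Hdac7 overlaps Slc48a1 on the opposite strand, which had 39641 reads, and Mef2a overlaps Lysmd4 on the opposite strand, which had 727. Whether the counting used strand is not stated, and reads of such antisense pairs cannot be told apart without it.

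The promoters were searched for the element that MEF2 itself binds, because the members include both the factors and their repressors. RefSeq (GRCm38.p6) windows from 250 bases before to 50 after a gene start were available for all 8 genes, 14 windows in all. A match to the MEF2 consensus, on either strand, was found in 2 of the 14 windows, those of Mef2a and Hdac5. Of all 32851 windows 3.19% held a match, and of 27025 genes 3.70%. In Mef2a the match began 2 bases before the start, and in Hdac5 20 bases before it. The E-box CAGCTG, a word bound by myogenic bHLH factors and identical on both strands, was found in 3 windows of 2 members, Hdac7 and Hdac9. Of all windows 16.3% held it. Hdac7 carried 2 copies in a window at an internal start. The CArG box, bound by the MADS-box relative SRF, was found in 0 of the 14 windows and in 1.63% of all. The windows of Mef2a, at chr7:67372809-67373108, of Hdac5, at chr11:102230123-102230422, and of Hdac7, at chr15:97814814-97815113, all on the minus strand, are shown because they hold these words. Capitals mark the MEF2 match in Mef2a and Hdac5 and both CAGCTG copies in Hdac7. A match is a description of the letters and not a bound site.
Mef2a: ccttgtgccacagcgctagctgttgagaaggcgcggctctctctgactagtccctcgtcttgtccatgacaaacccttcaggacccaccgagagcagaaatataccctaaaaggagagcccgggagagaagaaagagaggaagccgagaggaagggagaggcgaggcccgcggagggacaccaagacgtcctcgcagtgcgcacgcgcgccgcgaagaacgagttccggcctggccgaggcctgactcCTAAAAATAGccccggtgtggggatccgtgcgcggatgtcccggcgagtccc
Hdac5: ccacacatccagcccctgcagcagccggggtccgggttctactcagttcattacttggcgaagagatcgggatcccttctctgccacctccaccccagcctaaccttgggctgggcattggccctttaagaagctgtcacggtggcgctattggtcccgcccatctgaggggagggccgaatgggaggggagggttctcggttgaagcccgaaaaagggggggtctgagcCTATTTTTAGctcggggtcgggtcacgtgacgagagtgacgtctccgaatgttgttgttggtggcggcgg
Hdac7: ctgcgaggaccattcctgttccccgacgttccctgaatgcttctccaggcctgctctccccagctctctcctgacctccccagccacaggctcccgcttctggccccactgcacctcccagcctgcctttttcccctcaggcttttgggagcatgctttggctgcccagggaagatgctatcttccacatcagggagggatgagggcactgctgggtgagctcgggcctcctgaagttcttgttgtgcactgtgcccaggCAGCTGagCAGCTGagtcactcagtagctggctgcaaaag

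Of the MEF2 genes, Mef2d and Mef2a carried nearly all of the transcript. Levels of different genes were compared as FPKM, in which the authors divided by gene length and by a scaled library size, the product of a size factor and a common total. The summed MEF2 level was 16.5, 38.2 and 29.4 FPKM in WT replicates 1 to 3 and 30.4, 29.4 and 34.2 FPKM in KO-labelled replicates 1 to 3. WT replicate 1 was the lowest library in this sum and WT replicate 2 the highest. Mef2d made up 61.6% ± 6.86 (SD, n = 3) of it in WT and 65.7% ± 2.99 (SD, n = 3) in the KO-labelled libraries. Mef2a made up 32.2% ± 6.30 and 28.1% ± 1.67 (SD, n = 3 each). WT replicate 1 stood apart in both shares. Mef2d was at 54.2% in WT replicate 1, against 67.71% and 62.96% in WT replicates 2 and 3. Mef2a was at 39.12% in WT replicate 1, against 26.84% and 30.55% in WT replicates 2 and 3. Mef2c, which is induced during muscle differentiation, made up 5.26% ± 0.76 and 5.10% ± 1.20 (SD, n = 3 each). Mef2b made up 0.946% ± 0.655 and 1.10% ± 0.171 (SD, n = 3 each). The groups overlapped in all 4 shares.

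Hdac7, a class IIa HDAC best known from endothelial cells and thymocytes, was the main deacetylase gene of this class in these libraries. In each library the summed endothelial markers were above the summed myogenic markers, and Hdac7 overlaps the abundant Slc48a1 on the opposite strand. The part of either in the level of Hdac7 was not tested. It made up 67.1% ± 2.80 (SD, n = 3) of the summed class IIa FPKM in WT and 71.1% ± 2.57 (SD, n = 3) in the KO-labelled libraries. Hdac5 made up 25.9% ± 2.79 and 22.4% ± 2.85, and Hdac4 6.69% ± 0.48 and 6.15% ± 0.86 (SD, n = 3 each). Hdac9 made up 0.358% ± 0.042 and 0.438% ± 0.056 (SD, n = 3 each). The class IIa sum was 20.02, 41.0 and 35.6 FPKM in WT replicates 1 to 3 and 40.5, 40.8 and 36.9 FPKM in KO-labelled replicates 1 to 3. The ratio of this sum to the MEF2 sum was 1.17 ± 0.080 (SD, n = 3) in WT and 1.27 ± 0.166 (SD, n = 3) in the KO-labelled libraries. It kept a range of 1.07 to 1.39 over the 6 libraries, although both sums were lowest in WT replicate 1.

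**Figure D1:**
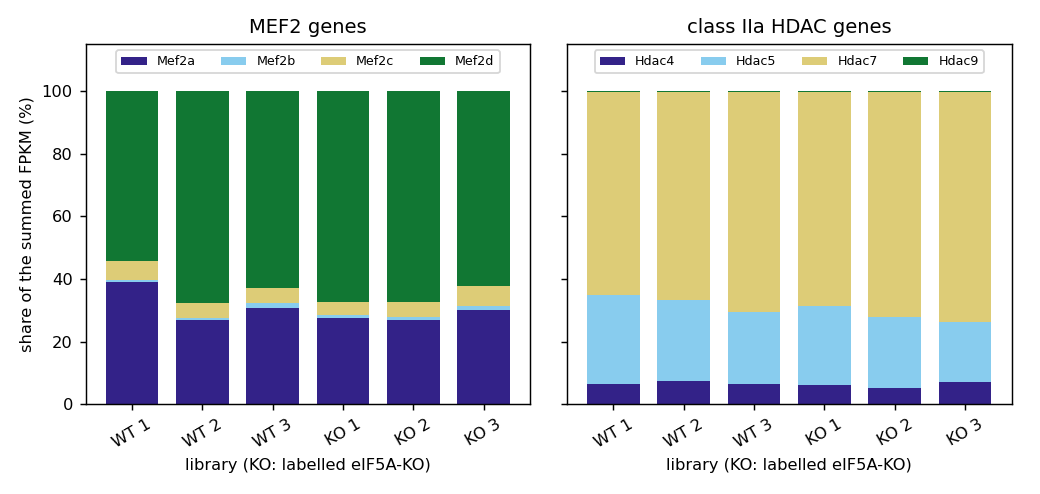
Share of each gene in the summed FPKM of the MEF2 genes (left) and of the class IIa HDAC genes (right), in percent, with 1 bar per library. Mef2d was between 54.2% and 67.7% of the MEF2 sum and Hdac7 between 64.7% and 73.2% of the class IIa sum.

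Ordered by mean FPKM over the 6 libraries, Hdac7 came first at 24.8 ± 5.99 (SD, n = 6), followed by Mef2d at 19.2 ± 5.60 (SD, n = 6). Mef2a at 8.70 ± 1.47 and Hdac5 at 8.52 ± 1.88 (SD, n = 6 each) followed. Lower levels were found for Hdac4 (2.30 ± 0.57), Mef2c (1.52 ± 0.44), Mef2b (0.309 ± 0.148) and Hdac9 (0.144 ± 0.042; SD, n = 6 each). Each gene was above the next in 6 of 6 libraries, except Mef2a and Hdac5, which changed places in 3 of 6 and did not differ beyond their spread. Mef2b lay above Hdac9 in FPKM but below it in reads, because its annotated length is 1404 bases against 14665 bases for Hdac9.

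No difference between the groups was called for any tested member. Of 7, 0 had an adjusted p under 0.05 in edgeR, where 0.0204% of all tested genes had one. An unadjusted p under 0.05 was also found for 0 of 7 in edgeR and limma-voom, and for 0 of 8 in DESeq2, which tested Mef2b as well. In edgeR 6.76% of all tested genes had one, 2.74% higher and 4.02% lower. By the criterion of the study's methods, a change over 2-fold and an unadjusted p under 0.05, 0 of 7 were called, against 1.69% of all tested genes. The log2 fold change was above 0 in 7 of 7, where 48.3% of all tested genes were above 0 and 51.7% below; scaled by library size alone, Mef2a was at -0.0024. The median over the members was 0.17, against -0.011 over all tested genes. Without WT replicate 1 the median was -0.064, and 6 of the then 8 tested members were below 0. Without WT replicate 2 the same 7 members were all above 0, from 0.19 for Mef2a to 0.64 for Hdac9. The adjusted p was between 0.863 and 0.987 for the members in edgeR.

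**Figure D2:**
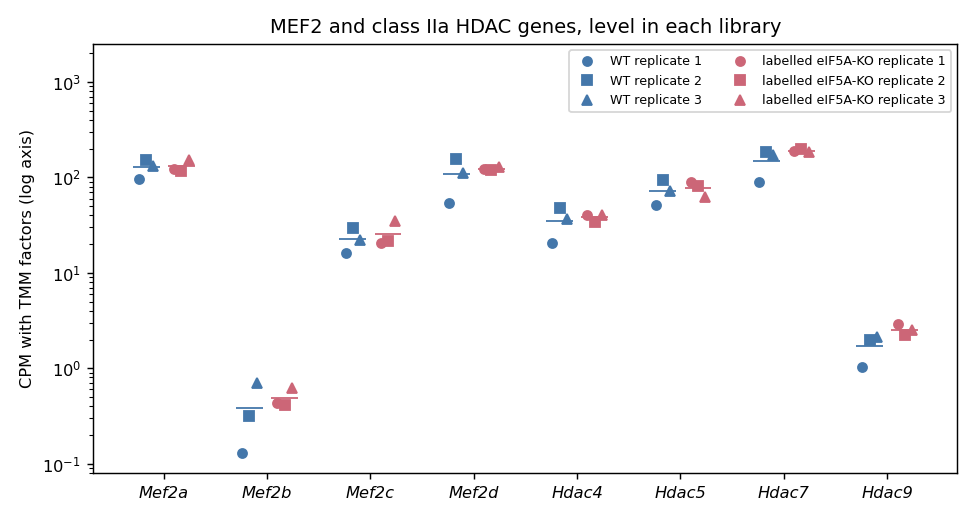
Level of each of the 8 genes in CPM on a log axis, with 1 point per library, the marker shape giving the replicate number and the horizontal line the mean of 3 libraries. WT replicate 1 (blue circles) is the lowest of the 6 libraries for all 8 genes.

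Mef2d, whose product is present in myoblasts before differentiation, had 54.4, 157 and 112 CPM in WT replicates 1 to 3. The KO-labelled libraries had 124, 120 and 128 CPM. The KO values lay close together, with a coefficient of variation of 3.44%, inside a WT range with one of 47.6%. The mean was 108 ± 51.2 CPM in WT and 124 ± 4.26 CPM in the KO-labelled libraries (SD, n = 3 each). The log2 fold change was 0.20 (95% interval -0.51 to 0.92, adjusted p = 0.955 in edgeR). It was -0.11 without WT replicate 1 and 0.58 without WT replicate 2. WT replicates 1 and 2 were the lowest and the highest of all 6 libraries.

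Mef2a, the other abundant MEF2 gene, had 96.2, 152 and 133 CPM in WT replicates 1 to 3 and 124, 117 and 151 CPM in KO-labelled replicates 1 to 3. The groups overlapped fully, with the KO range inside the WT range. The means were 127 ± 28.4 and 131 ± 18.4 CPM (SD, n = 3 each), and the log2 fold change was 0.04 (95% interval -0.43 to 0.51, adjusted p = 0.987 in edgeR). The interval allows a level between 0.742 and 1.42 of that in WT. This was the narrowest interval of the 7 members. The estimate was -0.12 without WT replicate 1 and -0.079 without KO-labelled replicate 3.

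Mef2c had 16.2, 29.5 and 22.3 CPM in WT replicates 1 to 3 and 20.3, 21.5 and 34.9 CPM in KO-labelled replicates 1 to 3. KO-labelled replicate 3 was the highest library and WT replicate 1 the lowest. The log2 fold change was 0.17 (95% interval -0.46 to 0.80, adjusted p = 0.959 in edgeR), and it was -0.012 without WT replicate 1 and -0.12 without KO-labelled replicate 3.

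Mef2b, which is known mainly from B lymphocytes, had 2, 6 and 12 reads in WT replicates 1 to 3 and 7, 7 and 11 reads in KO-labelled replicates 1 to 3. In CPM these were 0.129, 0.318 and 0.709 against 0.428, 0.414 and 0.624. The KO values lay inside the WT range, and the exact permutation p (two-sided, difference of means) was 0.5. Reads in the region shared with Borcs8 are part of these low counts or are lost from them, depending on a counting rule that is not stated.

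Hdac7 had 88.9, 186 and 170 CPM in WT replicates 1 to 3 and 188, 199 and 183 CPM in KO-labelled replicates 1 to 3. WT replicates 2 and 3 were close to the KO values, and WT replicate 1 was under them all. The means were 148 ± 52.1 and 190.1 ± 8.02 CPM (SD, n = 3 each), with a log2 fold change of 0.36 (95% interval -0.23 to 0.94, adjusted p = 0.886 in edgeR). Without WT replicate 1 it was 0.10. The largest value with a library left out was 0.55, without WT replicate 2, with an unadjusted p of 0.0590 in edgeR.

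Hdac5 and Hdac4 are the class IIa genes best known from skeletal muscle, where they repress MEF2 targets. Hdac5 had 51.0, 94.8 and 72.5 CPM in WT replicates 1 to 3 and 89.9, 81.6 and 62.9 CPM in KO-labelled replicates 1 to 3. The KO values lay inside the WT range, and the log2 fold change was 0.10 (95% interval -0.45 to 0.65, adjusted p = 0.975 in edgeR). Hdac4 had 20.6, 47.5 and 36.4 CPM in WT replicates 1 to 3 and 40.5, 34.0 and 40.7 CPM in KO-labelled replicates 1 to 3. These KO values, too, lay inside the WT range, with a log2 fold change of 0.14 (95% interval -0.49 to 0.76, adjusted p = 0.967 in edgeR). Without WT replicate 1 both estimates were below 0, at -0.089 for Hdac5 and -0.12 for Hdac4.

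Hdac9, which encodes the MEF2-binding repressor also known as MITR in its short form, was the only member whose groups did not overlap. It had 1.03, 1.96 and 2.13 CPM in WT replicates 1 to 3 and 2.88, 2.25 and 2.49 CPM in KO-labelled replicates 1 to 3. The highest WT value and the lowest KO value were 36 and 38 reads, closer than their counting error. The log2 fold change was 0.54 (95% interval -0.26 to 1.33, adjusted p = 0.863 in edgeR), and it was 0.31 without WT replicate 1. With limma on log2(FPKM + 1) it was 0.072 and on log2(FPKM + 0.1) 0.35, scales that understate changes at such low levels. Of all tested genes 12.5% had groups without overlap, 5.68% with the KO-labelled libraries higher and 6.83% with them lower, so that 1 of 7 members is near the background. The exact permutation p, two-sided, was 0.1 for Hdac9, which is the lowest value possible with 3 against 3. For the other 7 members it was between 0.2 and 1.0.

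**Figure D3:**
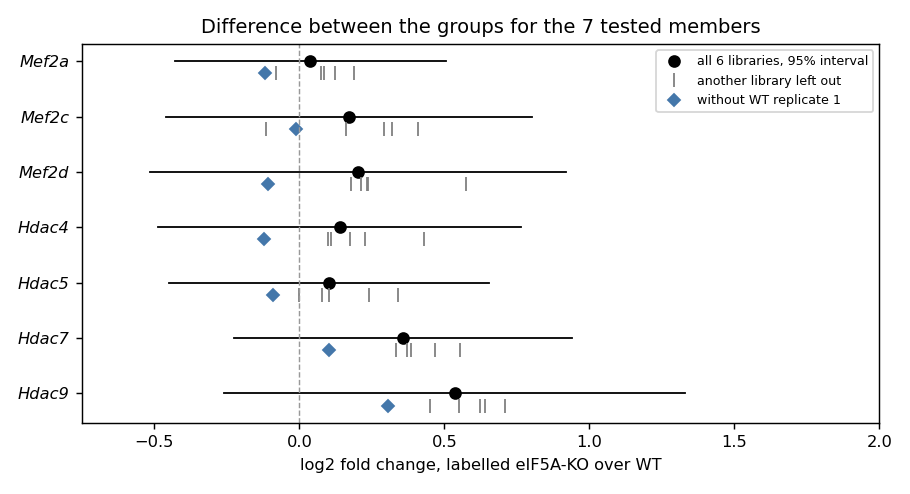
Log2 fold change of the 7 tested members, KO-labelled libraries over WT, with the 95% interval from all 6 libraries (black), the value without WT replicate 1 (blue diamonds) and the values with each other library left out (grey ticks). Every interval spans 0, and 5 of the 7 values without WT replicate 1 are below 0.

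The pattern shared by the members was a low value in WT replicate 1. It was the lowest of the 6 libraries for 7 of 7 tested members and for Mef2b, where it was the lowest for 27.9% of all tested genes. The level there was 0.252 of the mean of WT replicates 2 and 3 for Mef2b, 0.405 for Mef2d, 0.490 for Hdac4, 0.499 for Hdac7 and 0.506 for Hdac9. It was 0.610 for Hdac5, 0.623 for Mef2c and 0.675 for Mef2a. WT replicate 1 was lowest more often among long genes: with the tested genes in 4 equal groups by length, in 12.2% of the shortest group and in 24.5%, 32.7% and 42.1% of the next ones. The tested members have annotated lengths of 5985 to 15813 bases and fall in the 2 longest groups. Endothelial markers moved in the same way, with 11 of 12 lowest in WT replicate 1, as did 6 of 8 tested mural cell markers. Of the 9 myogenic markers 3 were lowest there, but all 9 were below the mean of the other 5 libraries, by a median of -0.48 on the log2 scale against 0.011 over all tested genes, and their summed level was the lowest of the 6 libraries. The parts of gene length, of cell type and of the mitochondrial share in the members' low values were not tested.

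**Figure D4:**
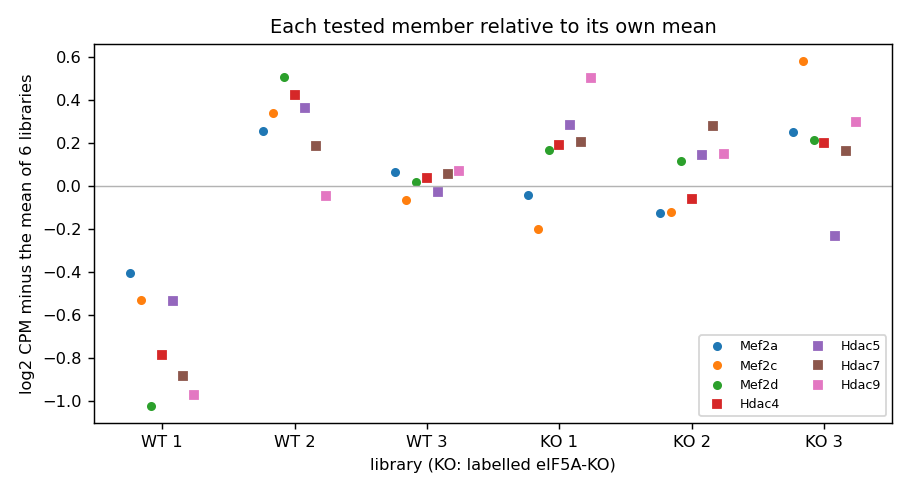
Log2 CPM of each tested member minus its own mean over the 6 libraries, by library, with circles for MEF2 genes and squares for class IIa HDAC genes. All 7 genes are below their mean in WT replicate 1, and none is the lowest in any other library.

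Among the members, Mef2d and Hdac4 had the most similar profiles, with a root mean square difference of 0.130 between their log2(CPM + 1) values, each centred on its own mean over the 6 libraries. Mef2d and Hdac7 followed at 0.159, and Mef2a and Mef2c at 0.160. Many other genes were closer. Among about 11037 genes with a mean of at least 5 CPM, the profile nearest to that of Mef2d was Zswim8 (0.024), followed by Zfp319 (0.046) and Gfod1 (0.054). The nearest to Hdac7 were Mmp17 (0.033), Ncdn (0.046) and Fam193a (0.049), and to Hdac4 Epha2 (0.035), Akap6 (0.035) and Slc22a23 (0.036). For Mef2a these were Rprd2 (0.029), Fbxo11 (0.034) and Ehd4 (0.036). Mef2c was nearest to Slfn5 (0.045), P3h2 (0.058) and Pcm1 (0.065). Hdac5 had no gene nearer than Arhgef19 (0.072), Pdk2 (0.075) and Arid5a (0.076), and Hdac9 was nearest to Zhx2 (0.047), Smtn (0.052) and Tnfrsf23 (0.058). The points share 6 libraries, and the low value of WT replicate 1 is part of every profile.

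The class IIa HDAC kinases, the genes of the signal that moves these HDACs out of the nucleus, showed no called change. Of 18 tested, 9 were higher and 9 lower, with a median log2 fold change of -0.0013, and 0 had an unadjusted p under 0.05 in edgeR. The median was -0.11 without WT replicate 1 and 0.18 without WT replicate 2. Sik3, a salt-inducible kinase, had 91.4 ± 19.5 CPM in WT and 114 ± 18.6 CPM in the KO-labelled libraries (SD, n = 3 each), a log2 fold change of 0.32. It was 0.16 without WT replicate 1, 0.18 without KO-labelled replicate 3 and 0.45 without WT replicate 2. The 14-3-3 genes and the exportin gene Xpo1 had a median of 0.034, with 6 of 8 higher and 0 at an unadjusted p under 0.05 in edgeR. Sfn, the 14-3-3 sigma gene, had the largest value among those with at least 5 CPM, 0.27, which was 0.028 without WT replicate 1 and 0.085 without KO-labelled replicate 1. It rose to 0.50 without WT replicate 3 and to 0.45 without KO-labelled replicate 2.

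Of the 9 corepressor partners, which include the HDAC3 and NCoR complex that gives class IIa HDACs their deacetylase activity, 3 were higher and 6 lower, with a median of -0.024 (-0.14 without WT replicate 1). Cbx5, the gene of the heterochromatin protein HP1 alpha, had 145, 148 and 122 CPM in WT replicates 1 to 3 and 76.0, 93.6 and 79.2 CPM in KO-labelled replicates 1 to 3. The groups did not overlap, and WT replicate 1 was not apart here. Its log2 fold change was -0.74, with an unadjusted p of 0.00165 and an adjusted p of 0.362 in edgeR. Over the 15 alternatives the adjusted p ranged from 0.0356, in DESeq2, to 0.9998, and it was under 0.05 in 1 of them. The 7 cell cycle genes followed the same direction, with a median of -0.78, 0 of 7 higher, and a summed level of 1053 to 1377 CPM in WT against 650.1 to 820.1 CPM in the KO-labelled libraries. Their part in the value of Cbx5 was not tested. Hdac3 had a log2 fold change of -0.17, which was -0.058 without WT replicate 1, -0.084 without KO-labelled replicate 3 and -0.27 without KO-labelled replicate 2.

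The MEF2 activating inputs are p38 and ERK5 MAP kinases, the kinases above them and calcineurin. Of 11 genes 8 were higher and 3 lower, with a median of 0.059 (0.13 without WT replicate 1) and 0 at an unadjusted p under 0.05 in edgeR. Ppp3ca, a catalytic subunit of calcineurin, had the largest value at 0.38. Of the 8 coactivators 2 were higher and 6 lower, with a median of -0.14 and 0 at an unadjusted p under 0.05 in edgeR. Mamstr, a muscle coactivator of MEF2 also called MASTR, had 8.40, 30.4 and 25.0 CPM in WT replicates 1 to 3 and 15.8, 13.4 and 13.9 CPM in KO-labelled replicates 1 to 3, a log2 fold change of -0.56. It was -0.93 without WT replicate 1, with an adjusted p of 0.067 in edgeR, and -0.21 without WT replicate 2. The WT libraries lay on both sides of the KO libraries. Without WT replicate 1 the median of the coactivators was -0.34, with 7 of 8 lower and 2 at an unadjusted p under 0.05 in edgeR.

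Among the MEF2 partners, the myogenic bHLH genes, the E proteins and Srf, 7 of 8 were tested, 4 higher and 3 lower, with a median of 0.018. With WT replicate 1 left out the median was -0.20, with 6 of 7 lower. Myog, which encodes myogenin and is itself a MEF2 target, had 14.4, 76.3 and 32.2 CPM in WT replicates 1 to 3 and 8.93, 5.09 and 2.10 CPM in KO-labelled replicates 1 to 3. All 3 KO values were under the lowest WT value. The log2 fold change was -2.91, with an unadjusted p of 0.00119 and an adjusted p of 0.362 in edgeR, and the adjusted p was under 0.05 in 3 of the 15 alternatives: 7.3e-27 without a filter, 0.0331 with a replicate block and 0.0182 without WT replicate 1. The largest was 0.735. For Myod1 the value was -0.61 with an edgeR adjusted p of 0.794, and the groups overlapped. It was -0.85 without WT replicate 1, with an unadjusted p of 0.0042 in edgeR, and -0.36 without WT replicate 2.

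The known MEF2 targets of muscle had mostly lower values in the KO-labelled libraries, without a call. Of 21 genes 19 were lower and 2 higher, with a median log2 fold change of -0.38. Of all tested genes 51.7% were lower. In limma-voom, and in edgeR without WT replicate 1, 17 of the 21 were lower. Some of the lower values were close to 0, such as -0.020 for Pfkm and -0.022 for Des. An unadjusted p under 0.05 in edgeR was found for 5, all of them lower: Myog, Hrc, Smyd1, Nrap and Eno3. Of all tested genes 4.02% were lower with such a p. Other targets, such as Lmod3 and Srpk3, had mean levels under 3 CPM. An adjusted p under 0.05 was reached by 0 of 21 in edgeR. Alternatives gave calls for Myog without WT replicate 1 and with a replicate block, for Eno3 in DESeq2, and for both without a filter. Eno3, the muscle enolase of glycolysis, had 149.7, 162 and 116 CPM in WT replicates 1 to 3 and 89.9, 79.0 and 52.0 CPM in KO-labelled replicates 1 to 3. The groups did not overlap, and the log2 fold change was -0.95 (adjusted p = 0.396 in edgeR, and from 0.0043 to 0.814 over the 15 alternatives, 2 of them under 0.05). Smyd1, a methyltransferase of sarcomere assembly, had a log2 fold change of -1.31 from 3.19 ± 1.15 to 1.21 ± 0.26 CPM (SD, n = 3 each). It overlaps the more abundant Krcc1 on the opposite strand. Nrap, a scaffold of myofibril assembly, and Hrc, a calcium-binding protein of the sarcoplasmic reticulum, had log2 fold changes of -1.12 and -0.92, at levels under 3 CPM. Their unadjusted p was above 0.05 with some single libraries left out, such as 0.159 for Hrc and 0.116 for Nrap without WT replicate 2 in edgeR. Tnni1, slow troponin I, had -0.49 with overlapping groups, and its sign turned to 0.14 without WT replicate 2. The median was -0.535 without WT replicate 1 and -0.036 without WT replicate 2, so that its size rested on the latter library. Myogenic markers moved alongside, with a median of -0.53 and 8 of 9 lower, and their part in the targets' values was not tested.

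The MEF2 targets known from immediate-early responses and endothelium had mostly higher values, again without a call. Of 6 genes 5 were higher and 1 lower, with a median of 0.39, and 2 had an unadjusted p under 0.05 in edgeR, both higher. Of all tested genes 48.3% were higher, and 2.74% were higher with such a p. Nr4a1, the orphan receptor Nur77, had 113, 144 and 92.4 CPM in WT replicates 1 to 3 and 275, 169.9 and 175 CPM in KO-labelled replicates 1 to 3, a log2 fold change of 0.83 (edgeR adjusted p = 0.488, and from 0.0185 to 0.9998 over the 15 alternatives, 1 of them under 0.05). Edn1, which encodes endothelin 1, had 158, 203 and 239.6 CPM in WT replicates 1 to 3 and 367, 249 and 306 CPM in KO-labelled replicates 1 to 3, a log2 fold change of 0.62 (edgeR adjusted p = 0.571), and 0.48 with an unadjusted p of 0.0829 without KO-labelled replicate 1. The groups did not overlap for either gene. Klf2, a flow-responsive factor of endothelium, had 0.56 with overlapping groups, and 0.35 without WT replicate 1. The 12 endothelial markers were all higher, with a median of 0.39. The 8 tested mural cell markers were all higher as well, with a median of 0.36. Of them 1, Myh11, the smooth muscle myosin heavy chain, was called in edgeR (log2 fold change 1.51, adjusted p = 0.0486). Calls were made for 0 of the 8 in limma-voom, 2 of 9 in DESeq2 and 1 of 8 in edgeR without WT replicate 1. Of the 8 macrophage markers 6 were higher and 2 lower, with a median of 0.33 and 0 called. The part of these cell types in the targets' values was not tested. Leaving out WT replicate 1 gave medians of 0.41 for the 6 targets, 0.18 for the endothelial markers, 0.21 for the mural markers and 0.19 for the macrophage markers. The difference between the muscle and the other targets was not tested.

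**Figure D5:**
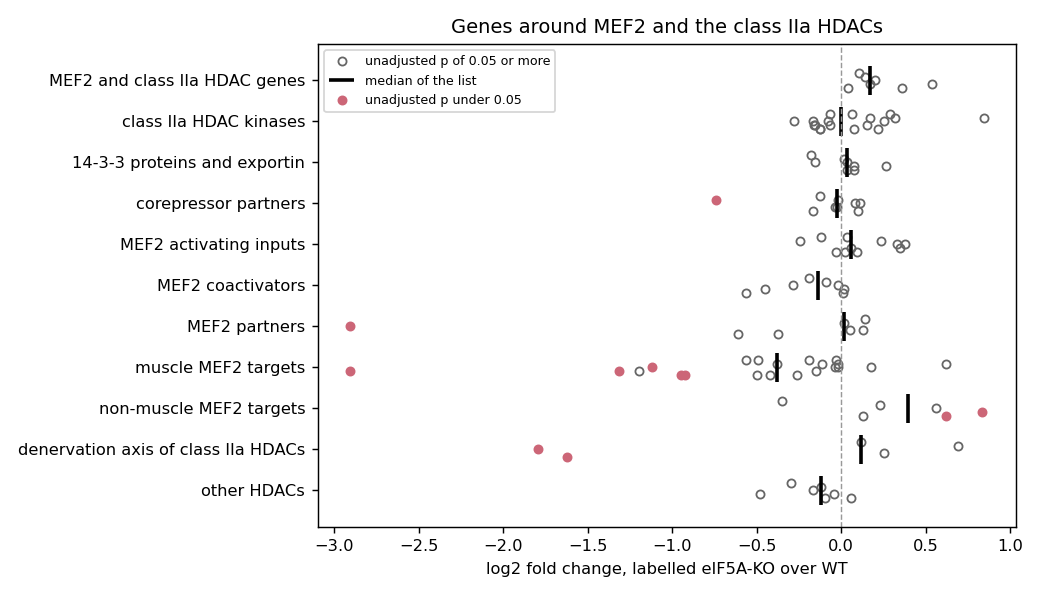
Log2 fold change of every tested gene in the 8 members' own group and in 10 lists of genes around them, 1 point per gene, filled where the unadjusted p was under 0.05 in edgeR, with the median of each list as a black bar. The muscle MEF2 targets have a median of -0.38 and the non-muscle targets of 0.39.

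In denervated muscle, HDAC4 and HDAC5 repress Dach2 and so raise myogenin and the acetylcholine receptor genes. Of 6 genes of this axis 5 were tested, and Dach2 itself had at most 2 reads in any library. Chrna1, the alpha subunit of the muscle acetylcholine receptor, had 85.3, 224 and 148 CPM in WT replicates 1 to 3 and 74.9, 43.8 and 29.9 CPM in KO-labelled replicates 1 to 3. Its log2 fold change was -1.62 (adjusted p = 0.396 in edgeR, and from 6.7e-10 to 0.843 over the 15 alternatives, 3 of them under 0.05), and the groups did not overlap. Chrng, the embryonic gamma subunit, was at -1.80 on the log2 scale (adjusted p = 0.398 in edgeR, and from 8.6e-07 to 0.826 over the alternatives, 3 of them under 0.05), from 11.4 ± 6.15 to 3.22 ± 1.45 CPM (SD, n = 3 each). Chrnd, the delta subunit, had 0.25 with overlapping groups, and it was -0.10 without KO-labelled replicate 1. The myogenic markers, with 8 of 9 lower, moved with Chrna1 and Chrng, and their part in these values was not tested. The 5 genes went both ways, 3 higher and 2 lower. Their median was 0.12, but -0.017 without WT replicate 1 and -0.75 with at least 10 counts in every library, where Trim63 was not tested. It stands beside log2 fold changes of 0.14 and 0.10 for Hdac4 and Hdac5 themselves.

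The other deacetylase genes, of classes I, IIb and IV, were mostly not low in WT replicate 1. None of the 7 was lowest there, although Hdac6 and Hdac10 were below the mean of the other 5 libraries, by differences of -0.28 and -0.11 on the log2 scale. The median difference of the 7 was 0.32, while that of the 7 tested members was -0.71. The low value was shared by other lists around MEF2: the 8 coactivators had a median difference of -0.69 with 5 lowest in WT replicate 1, and the 6 targets known outside muscle -0.49 with 4 lowest there. Of the 7 other deacetylase genes, 1 was higher and 6 lower in the KO-labelled libraries, with a median of -0.12 and 0 at an unadjusted p under 0.05 in edgeR. The median was 0.030 without WT replicate 1. Hdac6, the tubulin deacetylase, had the largest value among those past the level for naming, -0.30, which was -0.46 without WT replicate 1, -0.11 without WT replicate 2 and -0.45 without KO-labelled replicate 1. Whether the members and the other deacetylases differ in their response was not tested.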

How the data were processed

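RNA-seq of 6 libraries, 3 WT and 3 labelled eIF5A-KO, was analysed, grouped by the genotype in the labels. The authors mapped reads to mm10 with HISAT, counted them per gene with DEGSeq2 and deposited the raw counts. A second table deposited by the authors holds FPKM, whose denominators equalled the geometric mean of the library totals times a median-of-ratios size factor. The annotation, the strand setting and the rule for multiply mapped reads are not given in the sources used here. Counts were tested with edgeR 4.0.16 in R 4.3.3 (filterByExpr, TMM factors, quasi-likelihood F test, prior count 2) with Benjamini-Hochberg adjustment over 14679 genes. Limits from read counts cover counting error only. The biological coefficient of variation was 0.239. On simulated data of 14425 genes, 102 of 109 genes changed by a log2 of 2 and 28 of 84 changed by 1 were called, beside 15 unchanged genes. Each gene was drawn independently there, without a shift of a single library shared by many genes, so that these rates may not hold for the 6 libraries.

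Alternatives were DESeq2 1.42.0, limma 3.58.1 (voom, or log2(FPKM + 1) and log2(FPKM + 0.1)), other scalings and filters, a replicate block and each library left out. The members and lists were chosen with earlier results of these data known. Named are the members, Eif5a, Myod1 and Myog, and the 3 profiles nearest to each member. In each list around the members, genes with an unadjusted p under 0.05 in edgeR are named. Among the rest with at least 5 CPM, the largest change is named. The marker and cell cycle lists were not named by this rule. There such a p was found for 6 cell cycle genes and 1 myogenic marker, all lower. The latter was Pax7 (log2 fold change -1.49, unadjusted p = 0.0069 in edgeR). It was also found for 2 endothelial, 3 mural, 1 macrophage and 1 fibroblast marker, all higher.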

Additional observations from a re-analysis of the deposited data

How the results depend on the processing

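Depth limits Mef2b and Hdac9 most, with at most 12 and 47 reads per library. No tested member had an unadjusted p under 0.05 in any of the 15 alternatives; the smallest was 0.0590, for Hdac7 without WT replicate 2. With single libraries left out, log2 fold changes ranged from -0.12 to 0.19 for Mef2a, -0.12 to 0.41 for Mef2c, -0.11 to 0.58 for Mef2d, -0.12 to 0.43 for Hdac4, -0.089 to 0.34 for Hdac5, -0.13 to 0.23 for Eif5a, -0.78 to 0.14 for Tnni1 and -0.10 to 0.59 for Chrnd. Library size alone gave -0.0024 for Mef2a. The 3 genes with an adjusted p under 0.05 became 0 with DESeq2 size factors, library size alone, at least 10 counts in every library, limma-voom and limma on either FPKM scale. They became 249 without a filter, 92 in DESeq2 and 0 to 56 with a library left out, 56 without WT replicate 1. With the replicate block 24 genes passed. The replicate numbers were not taken as pairs, since same-numbered libraries correlated at 0.103, -0.221 and 0.113; the block gave 0.42 for Hdac7 and 0.32 for Mef2d. List medians ranged from -0.107 to 0.184 for the kinases, -0.537 to -0.0356 for the muscle targets and -0.205 to 0.0296 for the other HDACs with a library left out. The muscle targets' median was -0.10 with limma on log2(FPKM + 1), and that of the denervation axis -0.75 with at least 10 counts in every library, where Trim63 was not tested. The cause of the other moves was not tested.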
